A study of Mus musculus with 6 samples.

Results

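The liver of mice kept on a high-fat diet was compared with the liver of mice kept on chow, gene by gene, with 1 RNA-seq library on each side. Genes were taken into the comparison when they had at least 10 estimated reads in either library, which held for 13335 of the 18444 genes listed in the series. The HFD library came from the liver of male C57BL/6 mice, aged 6 to 8 weeks by the labels, on a high-fat diet and with the disease state given as NASH (non-alcoholic steatohepatitis, a fatty liver with inflammation). The chow library came from the liver of male C57BL/6 mice of the same labelled age, marked as the chow diet control. The study's methods describe a diet of 16 weeks, 6 mice a group and a fast of 8 h before the livers were taken, so that the labelled age cannot be the age at which a liver was taken after such a diet. They name the strain C57BL/6J, and they also describe a variant of the model that ended on a methionine- and choline-deficient diet, whereas the title of the library names HFD alone. Neither group received the compound that the study tested. The sources used here do not say how many mice went into a library, nor the hour of sampling.

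The libraries held 20184557 estimated reads for chow and 19724517 for HFD. With 1 library a side there is no replicate check: every difference given here is between these libraries, no p-value is given, and each 95% interval covers the counting of reads only. A gene was called higher or lower when its log2 ratio of HFD over chow, after scaling and with a prior count of 2, was at least 1 in size and the exact interval of the ratio left out 0. A gene that reached 10 reads in 1 library only could be called in the direction of that library alone. As a second control, the liver of mice given corn oil, from the other experiment of the series (19409752 reads), is set beside chow for the genes the results turn on. That liver differs from the chow liver in the experiment and in the injections of oil, and the 2 controls were themselves far apart. By the same rule, 1347 of 13302 genes were called between chow and corn oil (10.1%). Between HFD and chow 1252 of 13335 were called (9.39%), and between HFD and corn oil 1976 of 13482 (14.7%).

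In a fasting mouse, the liver burns fatty acids in mitochondria and peroxisomes and makes ketone bodies, glucose and lipoproteins, and the nuclear receptor PPARα switches on much of this program when fatty acids arrive. When the animal is fed, insulin and the transcription factors SREBP-1c and ChREBP switch on glucose use and fat synthesis. The liver is also a secretory organ whose endoplasmic reticulum (ER) folds the plasma proteins, and a reserve of chaperones is made there when folding lags behind, through the sensors IRE1, PERK and ATF6. Macrophages, stellate cells and sinusoidal endothelium lie between the hepatocytes and take part in inflammation and scarring of a fatty liver.

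Of the 13335 genes, 725 were higher in HFD (5.44%) and 527 were lower (3.95%). Over all genes the median log2 ratio came to 0.0040, with the 5th and 95th percentiles at -0.90 and 1.08. Of the called genes, 153 on the higher and 118 on the lower side lay past 4-fold, and 50 and 37 past 8-fold. The genes called lower held 14.1% of the chow reads and 4.77% of the HFD reads, and the genes called higher held 3.06% of the chow reads and 10.01% of the HFD reads. Scaling by total reads alone moved the median log2 ratio to 0.13 and gave 898 genes higher and 427 lower, so directions near 0 depend on the scaling.

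**Figure D1:**
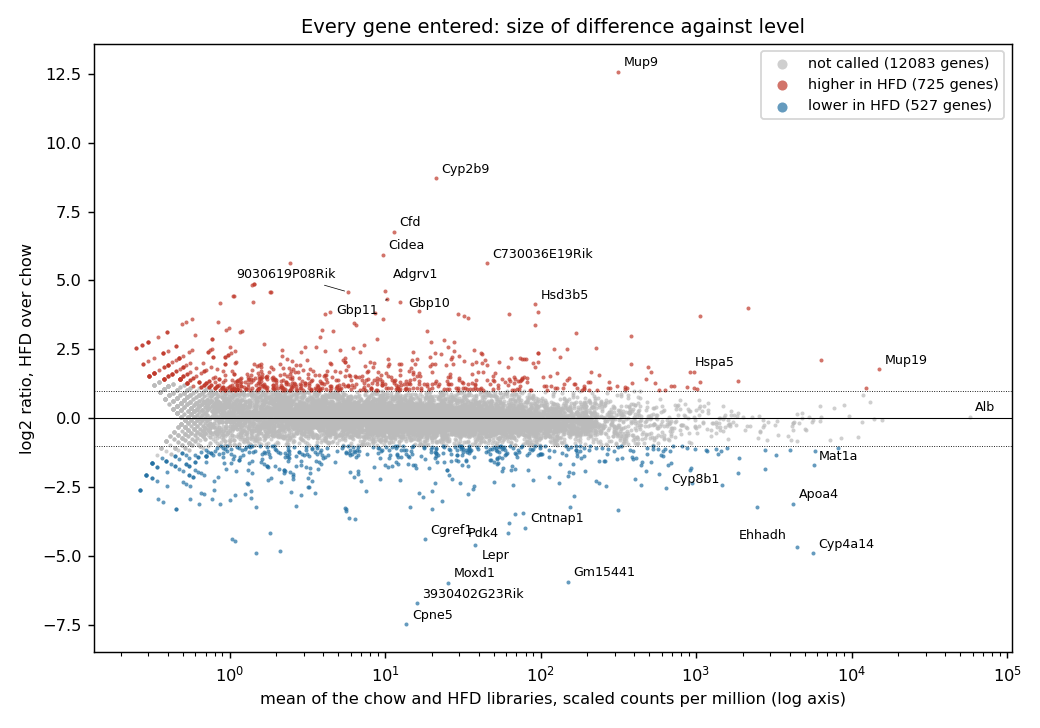
Log2 ratio of HFD over chow (vertical axis) against the mean scaled level of both libraries in CPM, counts scaled to library size (horizontal log axis), 1 point per gene. Red points are the 725 genes called higher, blue the 527 called lower, and dotted lines mark 2-fold. The genes of fatty acid oxidation Cyp4a14 and Ehhadh lie low and far to the right, among the most abundant transcripts.

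**Figure D2:**
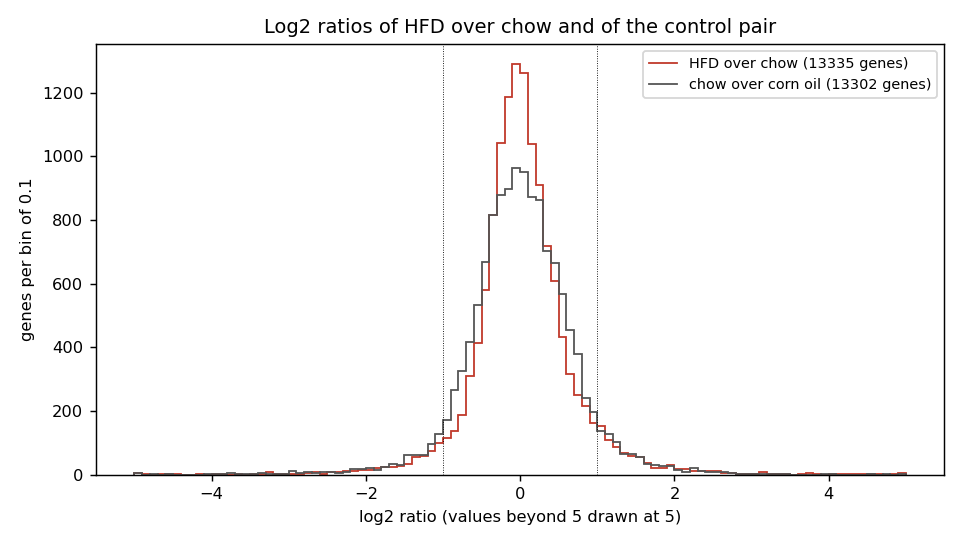
Number of genes per bin of 0.1 in log2 ratio, for HFD over chow (red) and for the chow over corn oil controls (grey), with dotted lines at 2-fold. The share of genes called, which also needs an interval that leaves out 0, was 9.39% in the first and 10.1% in the second.

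Promoters of ER chaperone genes are known for a shared motif, and the stretches that hold it are shown first because the results below open with this list. The ER stress response element (ERSE) is CCAAT and CCACG with 9 bases of any kind between them, bound by NF-Y and ATF6, and ERSE-II is ATTGG and CCACG with 1 base between them. Both were searched on both strands in the 250 bases before each RefSeq start (build GRCm38.p6, which is not the build named in the submitters' processing notes). ERSE stood in 20 of the 10604 promoters at hand for the genes compared (0.189%) and in 9 of the 20 at hand for the ER list (45%). ERSE-II stood in 6 of 10604 (0.0566%), Herpud1 among them. Hyou1, Manf, Derl1 and Atf6 had no promoter entry. The stretches below run 5′ to 3′ along the gene, in lower case with the motif in capitals, CGTGG first where it lies on the opposite strand.
Hspa5, chr2:34772019-34772049, plus strand: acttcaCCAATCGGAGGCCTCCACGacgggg
Hsp90b1, chr10:86705527-86705662, minus strand: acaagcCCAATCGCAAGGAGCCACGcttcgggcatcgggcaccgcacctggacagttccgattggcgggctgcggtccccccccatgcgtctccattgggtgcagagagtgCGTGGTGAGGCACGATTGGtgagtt
Creld2, chr15:88819514-88819544, plus strand: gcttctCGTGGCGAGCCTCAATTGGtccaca
Derl3, chr10:75893236-75893266, plus strand: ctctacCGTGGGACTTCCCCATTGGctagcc
Syvn1, chr19:6046526-6046556, plus strand: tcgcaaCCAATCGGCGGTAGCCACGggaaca
Pdia6, chr12:17266485-17266515, plus strand: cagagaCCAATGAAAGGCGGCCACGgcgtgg
Herpud1, chr8:94386371-94386393, plus strand: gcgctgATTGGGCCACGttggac
Canx, chr11:50325794-50325824, minus strand: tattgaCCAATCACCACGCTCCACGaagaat
Calr, chr8:84847069-84847099, minus strand: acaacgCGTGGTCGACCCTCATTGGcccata
Dnajc3, chr14:118937821-118937851, plus strand: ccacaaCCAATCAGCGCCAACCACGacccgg
The first 7 of these genes were called higher in HFD, and Canx, Calr and Dnajc3 were above chow by less than 2-fold, at log2 ratios of 0.63, 0.49 and 0.73. Of the 20 genes with ERSE over all promoters, 8 were called higher, 1 was called lower (Acacb, which is outside the ER list, at -2.26) and 11 were not called. Of the 8, only Xlr3a and Zfp57 lie outside the ER list, so most of this count repeats the genes printed above. Among all 10604 promoters, 560 belonged to genes called higher. A match of letters is a description of the promoter and does not show that a factor was bound.

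Many genes that fold proteins in the ER or clear misfolded ones were higher in the HFD library. Of 24 genes, 11 were called higher (against 5.44% of all genes) and none lower (3.95%), shares that are the background of each list count below too, 22 had a ratio above 0, and the median log2 ratio was 0.92, beside 0.0040 over all genes. Hspa5 (BiP), the master chaperone of the ER lumen, had 8141 reads in chow, 27926 in HFD and 9516 in corn oil, a log2 ratio of 1.69 (95% interval 1.65 to 1.72). Hsp90b1 (GRP94), the ER member of the HSP90 family and the one with 2 ERSE motifs above, went from 8059 in chow to 19298 in HFD (log2 ratio 1.17), with 10451 in corn oil. Hyou1, a large chaperone that exchanges the nucleotide of BiP, had 1884, 6459 and 1593 reads in chow, HFD and corn oil, and this order is kept for every triplet of unscaled counts below. A value without a unit, after "at" or in brackets, is a log2 ratio of HFD over chow. In each of these genes HFD lay above both controls.

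The largest log2 ratios of the ER list were those of Sdf2l1 at 2.56 (counts 138, 879 and 265), Manf at 2.36 (585, 3219 and 1178), Creld2 at 2.19 (435, 2126 and 671) and Derl3 at 1.98 (117, 497 and 53). Sdf2l1 and Creld2 are small ER-resident proteins, Manf is a secreted ER stress factor, and Derl3 belongs to the channel proteins of ER-associated degradation. Syvn1, the ubiquitin ligase of that degradation, had a log2 ratio of 1.46, Herpud1, its partner in the membrane, 1.27, and the disulfide isomerases Pdia4 and Pdia6 1.31 and 1.04. P4hb, a further disulfide isomerase, was at -0.18 and Derl1 at -0.56. The sensors themselves were not called: Ern1 (IRE1) was at 0.28, Eif2ak3 (PERK) at 0.58 and Atf6 at 0.43, and the transcription factor Xbp1 at 0.56.

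The integrated stress response, the branch below PERK and other kinases of the initiation factor eIF2α, gave a divided picture. Of 18 genes that entered, 4 were higher and 1 lower, with a median of 0.21. Ddit3 (CHOP), the transcription factor of prolonged stress, had 62, 273 and 109 reads (log2 ratio 2.01, interval 1.64 to 2.47). Chac1, a glutathione-degrading enzyme, Atf3 and Ddit4 were also higher, at 1.56, 1.54 and 1.05, with 35, 38 and 46 reads in chow. Ddit4 was not higher in HFD than in corn oil (46, 104 and 91). Asns, the asparagine synthetase that ATF4 drives, was lower at -3.61 (205, 16 and 590), and Atf4 itself was at -0.12. Among 13 heat shock genes of the cytosol and mitochondria, Hspa1a alone was called, with 97, 405 and 39 reads.

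Many genes of fatty acid oxidation were lower in HFD, and they held the largest fall by reads of the whole comparison. Cyp4a14, a cytochrome P450 that hydroxylates the last carbon of fatty acids, had 206802 reads in chow, 7401 in HFD and 107814 in corn oil, which is 29.8-fold lower in HFD than in chow (log2 ratio -4.90, interval -4.93 to -4.86). The 7 genes of its family, Cyp4a, fell together from 1.54% of the chow reads to 0.131% of the HFD reads, with 1.01% in corn oil (log2 ratio -3.68), and 5 of the 6 that entered were called lower. The family members are near copies whose reads the authors' counting divides by estimate, so the family sum is firmer than the single genes. Of the 10 omega-hydroxylases in all, 5 were lower and none higher, and the Cyp4f and Cyp4v members were between -0.30 and 0.57.

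Peroxisomes shorten very long and branched fatty acids. Of 19 peroxisomal genes, 7 were lower and 1 higher, with a median log2 ratio of -0.67. Ehhadh, the bifunctional enzyme of the peroxisomal pathway, had 161285, 6754 and 48808 reads, a 25.4-fold lower level in HFD than in chow (log2 ratio -4.67, interval -4.70 to -4.63). The thiolase Acaa1b was at -1.83 (81183, 24303 and 56108) and the carnitine acetyltransferase Crat at -2.28 (7060, 1546 and 3825). The corn oil counts of Ehhadh and Acaa1b lay between chow and HFD, so the fall from corn oil was smaller. The member called higher was Abcd2, a transporter of very long fatty acids into peroxisomes, at 1.10 (143, 328 and 157).

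Genes of mitochondrial β-oxidation and ketogenesis lay mostly below chow: 20 of 21 genes had a ratio below 0, 4 were called lower, none was called higher, and the median was -0.69. Pdk4, the kinase that shuts pyruvate dehydrogenase during fasting, had 2207, 128 and 364 reads (log2 ratio -4.18, interval -4.47 to -3.94). Cpt1a, the gate of fatty acid entry into mitochondria, was at -1.12 (25383, 12422 and 12170), and Hadha, a subunit of the trifunctional protein, was at -1.20. In corn oil, Cpt1a stood at 12170 reads, close to the HFD count. The receptor Ppara was at -0.23 and was not called.

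Acyl-CoA thioesterases release free fatty acids from their CoA esters. Of 12 that entered, 6 were lower and 1 was higher, with a median of -0.96. Acot1 in the cytosol and Acot2 in mitochondria, which are near-identical and share reads, were at -3.35 (10856, 1129 and 5100) and -3.47 (2369, 226 and 740). The sum over Acot1 to Acot6 was 15555 reads in chow, 2137 in HFD and 6818 in corn oil, a log2 ratio of -2.95. Acot11 was higher, at 1.67 (80, 276 and 85).

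The list of the 10 largest falls held further genes beside this program. Gm15441, a transcript that runs antisense to Txnip, had 5570, 95 and 723 reads (log2 ratio -5.93, interval -6.27 to -5.67), and since the strand of the libraries is not given, its reads cannot be told apart from those of Txnip where both overlap. Lepr, the leptin receptor gene, had 1365, 58 and 306 reads (-4.60). Cpne5, a calcium-dependent phospholipid-binding protein, had 516, 1 and 18 reads. Its ratio of chow over HFD was 549.7-fold without the prior count and the log2 ratio of HFD over chow with it was -7.49, and the interval is wide (log2 -14.41 to -6.62) because HFD held 1 read. Moxd1, a monooxygenase of the dopamine β-hydroxylase type, was at -5.98 (950, 14 and 383), 3930402G23Rik at -6.72 (598, 4 and 177), Cgref1 at -4.40 (654, 31 and 204) and Cntnap1, a contactin-associated adhesion protein, at -3.98 (2813, 188 and 428). In each of the 10, corn oil lay between HFD and chow.

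**Figure D3:**
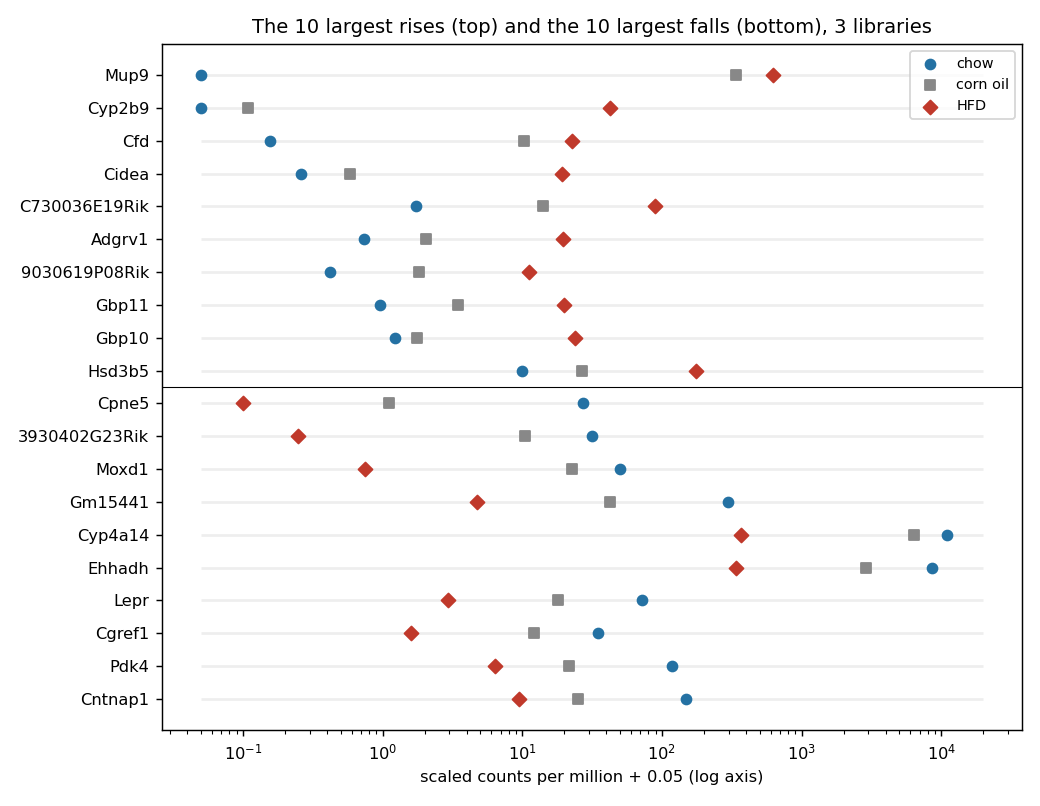
Scaled level in CPM (counts scaled to library size) plus 0.05 (log axis) of the 10 genes with the largest rise (above the line) and the 10 with the largest fall (below), among genes with at least 100 reads in the higher library. Circles are chow, squares corn oil and diamonds HFD, 1 library each. For every gene drawn, the corn oil library lies between the other two.

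The largest rises were led by genes that were almost silent in chow. Mup9, a major urinary protein, had 0, 12624 and 5801 reads and was at least 3949.8-fold higher in HFD, counting the 0 of chow as 3, and the exact interval of the log2 ratio starts at 11.65. Its sequence is shared with neighbouring Mup genes, so its own count is uncertain. Cyp2b9, a P450 of the female mouse liver, had 0, 856 and 1 reads and was at least 268-fold higher by the same floor, with an interval that starts at 7.76. Cidea, a protein that fuses lipid droplets and is scarce in a lean liver, had 4, 386 and 9 reads (log2 ratio 5.94, interval 5.13 to 8.38). Hsd3b5, a male-specific steroid reductase, had 186, 3521 and 454 reads (4.14). The guanylate-binding GTPases Gbp10 and Gbp11 were at 4.23 (22, 475 and 29) and 4.31 (17, 397 and 58), and Adgrv1, a very large adhesion receptor, was at 4.62 (13, 389 and 34). The RIKEN genes C730036E19Rik and 9030619P08Rik were at 5.63 (32, 1788 and 239) and 4.58 (7, 225 and 30).

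Cfd, the complement factor adipsin that fat cells secrete, had 2, 454 and 175 reads (213-fold without the prior count, log2 ratio 6.76 with it, interval 5.87 to 10.79). Of 7 adipocyte markers only Cfd and Fabp4 entered, and Fabp4 was at -0.75 (260, 164 and 195). The defining marker Adipoq was at 0 reads in both chow and HFD, with 11 in corn oil, and Plin1 had 1 read in each of chow and HFD.

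Fat storage did not move as 1 block. Of 25 genes of lipid droplets and triglyceride turnover, 4 were higher and 8 lower, with a median of -0.57. Beside Cidea, the higher genes were Plin4 at 1.35, Fitm1 at 1.37 (313, 865 and 813) and Lpin1, a phosphatidate phosphatase, at 2.04 (707, 3104 and 4093). Against the corn oil library, Lpin1 and Fitm1 were not higher in HFD. Plin2, the main droplet coat of hepatocytes, was lower at -1.998 (56306, 15017 and 22002), as were Cidec at -2.85 (5423, 802 and 1987), Plin5 at -2.36 (4134, 855 and 3326), the lipase Pnpla2 (ATGL) at -1.92 (5758, 1625 and 4661) and its inhibitor G0s2 at -1.98 (4850, 1310 and 5761). Cidea and Cidec, relatives with the same task, thus differed in opposite directions. The last enzymes of triglyceride synthesis, Dgat1 and Dgat2, were at -0.77 and 0.98, inside 2-fold.

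Among 15 genes of fatty acid uptake and binding, 2 were higher and 3 lower. Cd36, the fatty acid translocase, had 541, 2576 and 522 reads (2.16, interval 2.03 to 2.30), and Vldlr, the VLDL receptor, had 17, 83 and 21 (2.08). The lower genes were Fabp5 at -2.35, Acsl1, the main acyl-CoA synthetase of the liver, at -1.33 (88579, 37630 and 39257) and Slc27a1 at -1.26. Fabp1, the abundant fatty acid binder of hepatocytes, was at -0.81.

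The genes of fat synthesis were divided in equal numbers, with 4 of 20 higher and 4 lower and a median of -0.38. Higher were Thrsp (Spot 14), a regulator of lipogenesis, with 84, 1204 and 347 reads (3.72), Srebf1, which encodes SREBP-1, with 664, 2008 and 586 (1.502), Pparg with 100, 275 and 147 (1.35) and the pyruvate kinase Pklr with 1539, 3521 and 1350 (1.10). Lower were the elongase Elovl5 at -2.34 (29860, 6287 and 15995), Acacb, the carboxylase whose product restrains β-oxidation, at -2.26, Insig2 at -1.58 and the desaturase Fads2 at -1.16 (9840, 4701 and 3874), which was not lower in HFD than in corn oil. The core synthetic enzymes Fasn and Acaca were at 0.19 and -0.44, and Scd1 was at -0.63. Of 25 cholesterol synthesis genes, Mvd and Insig1 were higher (1.27 and 1.20), Hsd17b7 was lower (-1.88), and the median was -0.027. The counts and the median lie near the shares and the median of all genes.

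Of 20 genes of gluconeogenesis, glycolysis and glycogen, 5 were higher and 3 lower. G6pc, the phosphatase that releases glucose from the liver, had 12625, 2934 and 8164 reads (-2.20). Among the higher genes were Pfkfb3 at 2.46 (216, 1272 and 168), the glycogen-targeting subunit Ppp1r3b at 1.37, Ugp2 at 1.29 and the branching enzyme Gbe1 at 1.07. The others lower were Ppp1r3g, a glycogen-targeting subunit of fasting, at -3.38 (194, 18 and 78) and Irs2, an insulin receptor substrate, at -1.44 (580, 226 and 128). Irs2 lay above corn oil in HFD, by less than 2-fold. Pck1 was at -0.78 (67760, 42099 and 78782) and was not called.

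Among 18 genes of liver-secreted hormones and their binding proteins, 4 were higher and 4 lower. Fgf21, a fasting hormone of the liver, had 691, 73 and 215 reads (-3.30, interval -3.70 to -2.98), and Igfbp1 and Igfbp2, binders of the insulin-like growth factors, were at -3.24 (5316, 596 and 2266) and -2.04 (17495, 4539 and 17793). Inhbe, an activin subunit, was also lower at -1.34. Among the higher were Gdf15, a stress hormone, at 1.39 (115, 324 and 115), Lect2 at 1.24 and Angptl8 at 1.23 (112, 283 and 449). Angptl8 was not higher in HFD than in corn oil. Igf1 was at -0.11.

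Of 17 lipoprotein genes, 6 were lower and none higher, with a median of -0.55. Apoa4, an apolipoprotein of triglyceride-rich particles and HDL, had 142917, 17654 and 57854 reads (-3.11, interval -3.13 to -3.09), Apoa5, an activator of triglyceride clearance, was at -1.32 (37230, 15868 and 36471), and Mttp, which loads lipid onto ApoB, at -1.14 (13608, 6600 and 7349). Apob and Apoe were at -0.077 and -0.030.

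In bile acid metabolism, 5 of 20 genes were higher and 2 lower. Cyp8b1, the 12α-hydroxylase that makes cholic acid, had 20532, 3772 and 19408 reads (-2.54, interval -2.59 to -2.49), with chow and corn oil close to each other. Abcb4, the phospholipid exporter of bile, was lower too, at -1.13 (16268, 7922 and 8808). The reductase Akr1d1 was higher at 2.09 (312, 1424 and 758), as were the exporter Abcc3 at 1.15 (2232, 5272 and 4515, not higher than in corn oil), the uptake transporter Slco1b2 at 1.08 and Abcg5, which exports sterols, at 1.01. Cyp7a1, the rate-limiting enzyme of bile acid synthesis, had 339, 781 and 1387 reads (1.11), and corn oil stood above HFD.

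**Figure D4:**
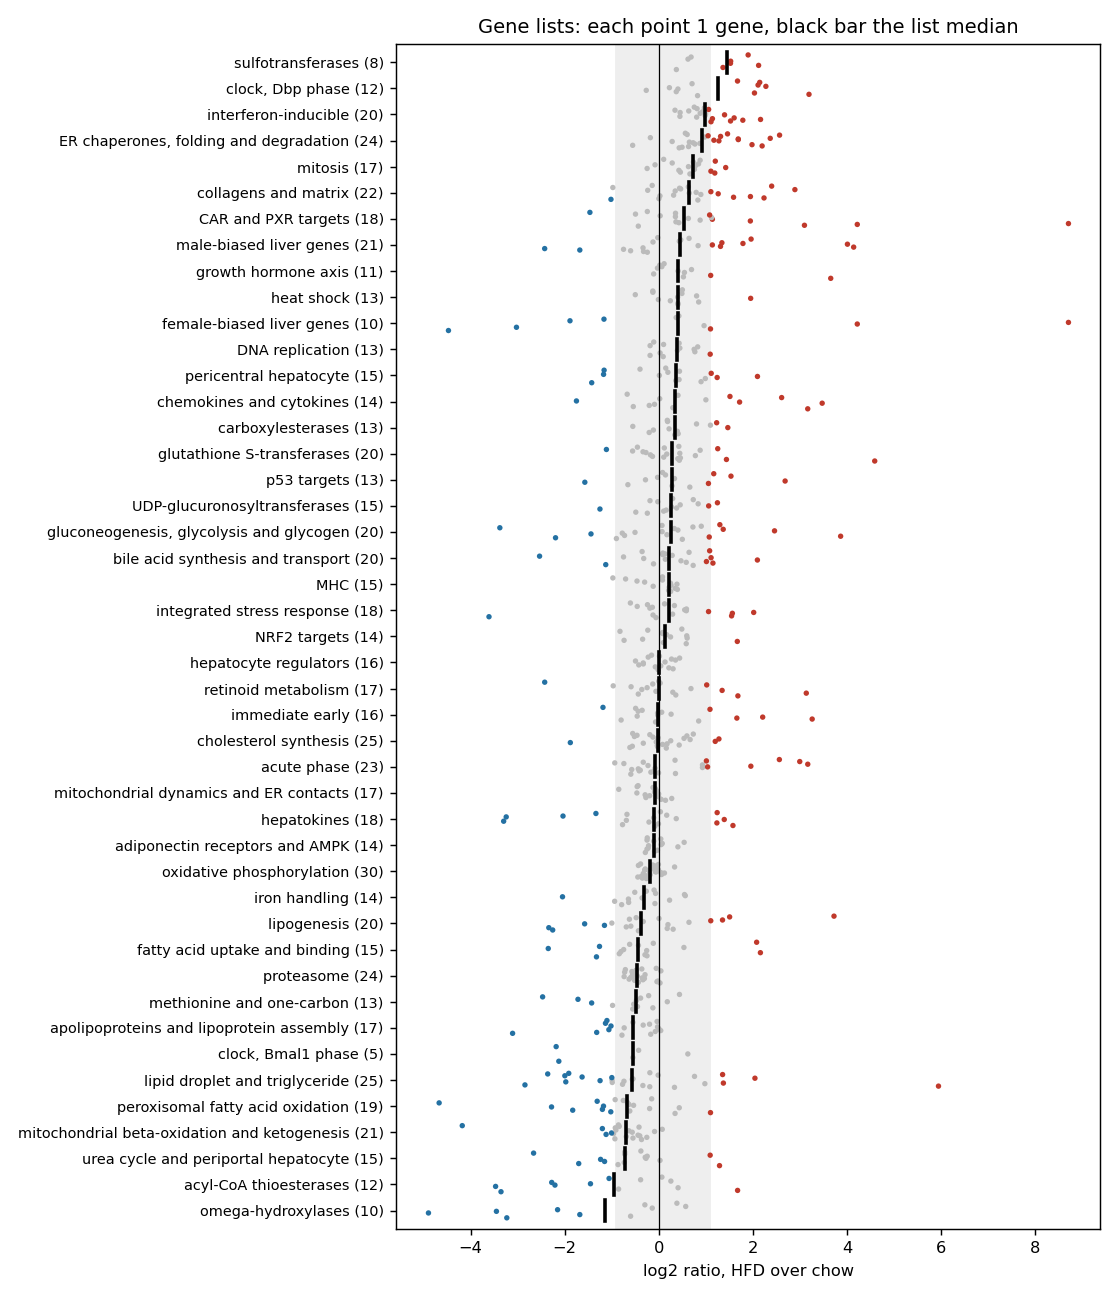
Log2 ratio of HFD over chow (horizontal axis) for the genes of each list with at least 5 genes entered, cell type marker lists left out, sorted by list median, with the number of genes in brackets. Red points were called higher, blue lower, grey neither, black bars are list medians, and the grey band runs from the 5th to the 95th percentile of all genes (-0.90 to 1.08). Sulfotransferases, clock genes of the Dbp phase, interferon-inducible genes and ER chaperones have the highest medians of the lists drawn, and omega-hydroxylases and thioesterases the lowest.

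The lists of inflammation differed among themselves. All 20 interferon-inducible genes had a ratio above 0, with 8 called higher, none lower and a median of 0.97. Ifit1, an RNA-binding antiviral protein, had 71, 345 and 83 reads (2.16, interval 1.82 to 2.58), Ifi44 was at 1.78, Ifit3 at 1.60, Gbp3 at 1.52 and the ubiquitin-like Isg15 at 1.39 (87, 247 and 105). The 11 Gbp genes, which interferon-γ induces in particular, summed to 522 reads in chow, 2540 in HFD and 594 in corn oil (log2 ratio 2.19), with 6 called higher. Gbp genes are close copies of each other, and reads can be divided between them. Of 15 MHC genes none was called in either direction, and a list of that size would hold few calls at the 9.39% of all genes.

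Of 14 chemokines and cytokines that entered, 5 were higher and 1 lower. Cxcl1, a neutrophil attractant, had 18, 233 and 23 reads (3.47, interval 2.91 to 4.38), Ccl2, a monocyte attractant, 3, 45 and 1, and the interferon-induced Cxcl10 41, 148 and 33. Cxcl9, of the same kind, had 66, 204 and 64 reads. Cxcl2 went from 1 read to 17. Ccl2 and Cxcl2 entered through the HFD library alone, so they could be called higher only. The list median was 0.35, and 0.018 among genes with at least 100 counts in either library. Il1b was at -0.67 (103, 68 and 22), Tnf had 2, 9 and 1 reads and did not enter, and Il6 had no read in these libraries. Of 23 acute phase genes, 6 were higher and none lower, and the list median was -0.082. Saa4, the constitutive serum amyloid, had 1613, 13684 and 3167 reads (2.99), the metalloreductase Steap4 1241, 7800 and 882 (2.56) and Orm3 16, 169 and 52 (3.16), while the inducible Saa1 and Saa2 were at -0.74 and -0.94. The metallothioneins Mt1 and Mt2 were higher than in chow and far lower than in corn oil, Mt1 with 815, 1780 and 10896 reads (1.03) and Mt2 with 160, 666 and 4795 (1.95).

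Macrophage markers did not move as 1 block. Of 3 genes of resident Kupffer cells none was called: Clec4f was at -0.043 (1418, 1466 and 413), Vsig4 at 0.11 and Timd4 at -0.28. Of 18 markers, 12 had a ratio above 0 and 6 below, 6 were higher and 1 lower, and the higher ones were Mmp12 at 3.76 (9, 156 and 0), Gpnmb at 1.97 (33, 144 and 14), Ccr2 at 1.57 (19, 64 and 18), Itgax at 1.48 (18, 57 and 12), Ly6c2 at 1.33 (22, 62 and 21) and Trem2 at 1.11 (22, 53 and 6). Gpnmb, Trem2 and Itgax mark lipid-associated macrophages, and Ccr2 and Ly6c2 mark monocytes. The tetraspanin Cd9, which lipid-associated macrophages carry as well, was lower, at -1.39 (582, 235 and 506). In bulk tissue, more cells of a type and more RNA per cell cannot be told apart. The summed counts of the 18 markers were 7355 in chow, 7752 in HFD and 2023 in corn oil. The list median was 1.63 for chow over corn oil and 0.16 for HFD over chow. In the sum and the median, the control livers thus differed more than HFD and chow did. That does not hold for each marker: the 6 called higher lay above both controls in HFD, and the controls were close for Ccr2 and Ly6c2.

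The genes of collagens I and III were higher. Of 22 collagen and matrix genes, 7 were called higher and 1 lower, with a median of 0.64. Col1a1, a chain of collagen I, had 178, 899 and 231 reads (2.23, interval 2.01 to 2.49), and its partner chain Col1a2 had 247, 794 and 323 (1.59, interval 1.39 to 1.81). Col3a1 had 352, 1449 and 291 (1.94, interval 1.78 to 2.12). Lox, which cross-links collagen, and Timp1, a protease inhibitor, went from 2 reads each to 29 and 20, with 12 and 12 in corn oil. Lox and Timp1 entered through the HFD library, not through chow, so they could be called higher only. Col5a2 and Col6a3 were at 1.26 and 1.10, and Col15a1 was lower at -1.02 (291, 152 and 108), though not lower than in corn oil. The basement membrane chains Col4a1 and Col4a2 were at 0.022 and 0.31. Of 12 stellate cell and myofibroblast markers only Lrat, which esterifies retinol, was called (1.34, 145, 395 and 135), and Acta2, the smooth muscle actin of activated cells, had 31, 35 and 165 reads. None of 6 bile duct and 5 lymphocyte markers that entered was called, and of 5 neutrophil markers Elane was (2, 13 and 4). Of 11 endothelial markers Lyve1 alone was called, at 1.09. Over all genes 9.39% were called, so marker lists of 5 to 12 genes would hold few calls at that share.

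The major urinary proteins (Mup), which male mice make in the liver and excrete as scent carriers, took 6.10% of the chow reads, 12.4% of the HFD reads and 10.5% of the corn oil reads. Of the 21 genes, 12 were higher in HFD, none was lower, and the log2 ratio of the sum was 0.90, so the family as a whole stayed inside 2-fold. Mup genes are near copies whose reads the authors' counting divides by estimate. The 12 calls are therefore not separate measurements, and the family sum is firmer than the single genes below. Corn oil stood nearer to HFD than to chow. The largest gains of reads in the comparison were Mup19 (127852, 469505 and 357104), Mup14 (148300, 336049 and 280636) and Mup15 (45274, 208664 and 260453), at 1.79, 1.09 and 2.11. Mup11, Mup10, Mup7 and Mup3 were also among the 10 largest gains, at 0.83, 0.58, 0.46 and 0.45 inside 2-fold, and Mup17 was at 4.005 (4751, 81292 and 63156). Mup20, also called darcin, was at -0.13. The other gains were Alb and Cyp2e1, at 0.052 and 0.36. Of these 10 genes, Mup15, Mup10, Mup3, Alb and Cyp2e1 were not higher in HFD than in corn oil after scaling, nor was Mup2.

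**Figure D5:**
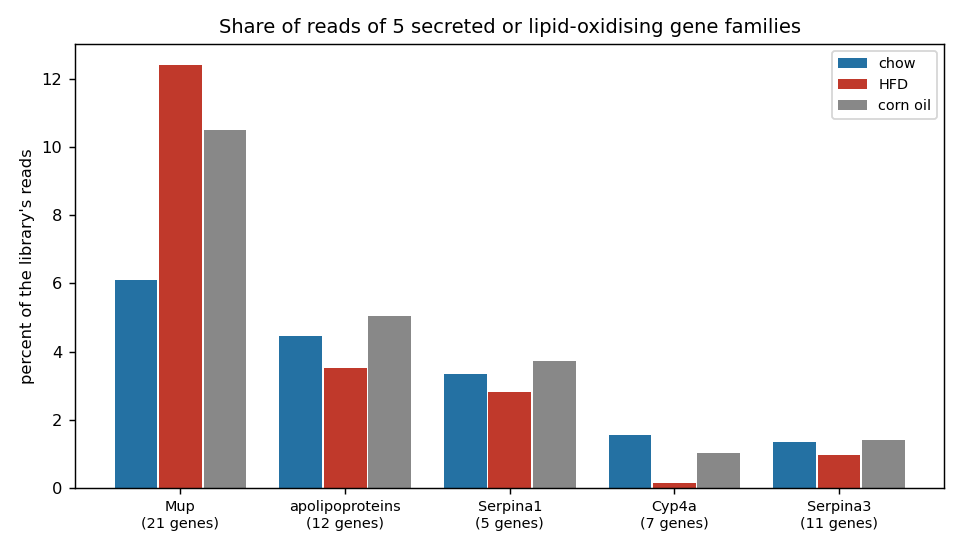
Percent of the reads of each library (vertical axis from 0) that 5 gene families took, for chow (blue), HFD (red) and corn oil (grey), 1 library each. Mup genes took 6.10%, 12.4% and 10.5%, and Cyp4a genes 1.54%, 0.131% and 1.01%.

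The 10 largest losses of reads included, beside Cyp4a14, Ehhadh, Apoa4 and Cyp4a10, those of Mat1a, Serpina1e, Serpina3k, C3 and Apoa1. Mat1a, which makes the methyl donor S-adenosylmethionine, had 165322, 53489 and 151597 reads (-1.72, interval -1.73 to -1.71). Of 13 genes of methionine and one-carbon metabolism, 3 were lower, Mat1a and Cth at -1.43 (10720, 4241 and 13016) among them, and none was higher. Serpina1e, one of the near-identical α1-antitrypsin genes, was at -1.10, while the 5 genes of that family summed to 3.33% of the chow and 2.81% of the HFD reads. Serpina3k, C3 and Apoa1 were at -0.69, -0.71 and -0.79, inside 2-fold. C3 (200459, 130227 and 100315) was not lower in HFD than in corn oil.

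Sex-biased genes did not move as a block in these male livers. Of 21 male-biased genes, 7 were higher (6 of them Mup genes or Hsd3b5) and 2 lower, the elongase Elovl3 at -2.43 (14013, 2775 and 8783) and Cyp4a12b at -1.68. Of 10 female-biased genes that entered, Cyp2b9, Cyp2b13 (1, 56 and 0) and Abcd2 were higher, and A1bg (41, 0 and 11), Cyp17a1 at -3.03 (786, 101 and 646), Cyp2c40 and Cyp2c69 were lower. The 4 Y-linked genes were present in each library and Xist had 3 and 5 reads, as the male label has it. Bcl6, a repressor of sex-biased liver genes, had 94, 1281 and 252 reads (3.65, interval 3.37 to 3.995), and the growth hormone receptor Ghr had 4315, 9856 and 4758 (1.10).

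Of 5 clock genes of the Bmal1 phase, 2 were lower and none higher, with a median of -0.55. The lower ones were Arntl (Bmal1) and Npas2, activators of the clock, Arntl at -2.13 (195, 46 and 142) and Npas2 at -2.18 (58, 12 and 27). Of 12 genes that peak in the other phase, 6 were higher and none lower, with a median of 1.25: Ciart at 3.19 (13, 143 and 155), Per2 at 2.27 (191, 991 and 268), Usp2 at 2.14, Per3 at 2.11, Dbp at 2.03 (398, 1738 and 824) and Wee1 at 1.67. Nr1d1 was at -0.27. Ciart was as high in corn oil as in HFD. The hour of sampling was not given, and its part in any difference between the libraries was not tested.

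The lists of detoxification enzymes held more genes called higher than lower, as the whole comparison did. All 8 sulfotransferases that entered had a ratio above 0, and 5 were called higher: Sult1c2 (21, 104 and 19), Sult5a1, Sult1d1 (484, 1483 and 1246), Sult1e1 and Sult1b1 (225, 619 and 279). Of 18 targets of the drug receptors CAR and PXR, 6 were higher, with Cyp2a5, the coumarin hydroxylase, at 3.09 (670, 6101 and 4395), and Por, the reductase that feeds electrons to the P450 enzymes, was lower at -1.47 (11370, 4384 and 14677). Cyp2b10, the usual reporter of CAR, had 0 and 2 reads and did not enter. Cyp3a25 was higher than in chow and lower than in corn oil (2292, 5155 and 14129). Of 20 glutathione S-transferases, 3 were higher, Gsta3 among them at 1.43 (4856, 13989 and 7668), and Gstt2 was lower. Gsta1 had 1 read in chow, 73 in HFD and 64 in corn oil. The summed reads of the CAR and PXR list were 70801, 81959 and 145544 and those of the glutathione S-transferases 152927, 146571 and 190486, so corn oil was highest for both. Of 15 UDP-glucuronosyltransferases 2 were higher and 1 lower, and of 13 carboxylesterases 2 were higher, Ces1g (814, 2396 and 1444) and Ces2e (1604, 4002 and 2265). In the NRF2 list, 1 of 14 genes was higher (Cbr3, 4, 18 and 16).

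Along the lobule, genes of both zones differed in both directions. The urea cycle and periportal list had a median of -0.73, with 4 of 15 lower and 2 higher: Sdsl at -2.66, the argininosuccinate lyase Asl at -1.70 (12773, 4177 and 24522), Etnppl at -1.24 and Cps1, which makes carbamoyl phosphate, at -1.15 (72063, 34490 and 47181), against Otc at 1.09 (3293, 7464 and 5868) and Aldh1b1 at 1.29. Of 15 pericentral genes 3 were higher, the Wnt receptor partner Lgr5 (37, 175 and 85) among them, and 3 lower, the Wnt target Axin2 (334, 131 and 190) and the aminotransferase Oat (30312, 14297 and 31746) among them. Glul, which makes glutamine, was at 0.43. In the retinoid list, Retsat was lower at -2.43 (46809, 9277 and 21640) and Aldh1a1 higher at 1.68 (8701, 29666 and 14101), and Cyp26a1, which degrades retinoic acid, had 3, 44 and 273 reads. Of 14 iron genes only Id1, a BMP target, was called (-2.05, 204, 51 and 216), and the hormone hepcidin (Hamp) was at -0.94 (6106, 3388 and 8596).

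Small lists of growth and stress had few reads. Of 17 mitosis genes that entered, 4 were higher, 6 of the 17 having reached 10 reads in 1 library only, and Mki67 had 18, 36 and 22 reads. Of 13 DNA replication genes Ccne2 alone was called, from 10 to 25 reads. Among p53 targets, Eda2r (7, 59 and 3), Phlda3, Trp53inp1 and Ccng1 were higher and Cdkn1a (p21) lower, at -1.57 (828, 295 and 1050). Among immediate early genes, Egr2 (2, 38 and 0), Fosb (5, 32 and 5), Fos (24, 85 and 37) and Klf6 were higher and Nr4a1 lower.

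Several groups had no gene past 2-fold in either direction. Over all genes 9.39% were called, so a list of 14 to 17 genes would hold few calls at that share. These were the 30 subunits of oxidative phosphorylation (median -0.19, range -0.45 to 0.33), the 24 proteasome subunits (median -0.47, 22 of 24 below 0), the 17 genes of mitochondrial dynamics and ER contact, the 14 genes of adiponectin receptors and AMPK, and the 16 transcription factors and receptors of hepatocyte identity. Adipor1 and Adipor2, the receptors that the compound of the study addresses, were at -0.29 (2293, 2000 and 2050) and -0.091 (13356, 13358 and 7941). Hnf4a was at -0.33. The 11 hepatocyte markers took 11.2% of the chow reads and 11.4% of the HFD reads, with Cps1 the only one called. Globins, which mark blood left in the tissue, were lower in HFD, 4 of 4 genes, with a summed log2 ratio of -1.19, and the pancreatic protease gene Cela1 was higher at 1.51 (102, 314 and 146) while the other acinar markers listed had fewer than 10 reads in each of chow and HFD. The part of blood or of other cells in the differences above was not tested.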

How the data were processed

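Liver RNA of 6 libraries, 1 per condition, was sequenced on the BGISEQ-500. The submitters' processing notes name HISAT, Bowtie2, RSEM and the build mm9, without versions. The authors deposited an expected count per gene, an estimate of its reads without normalization, and an FPKM value per gene, which is scaled to transcript length and library size. The 4 deposited tables of the authors' own comparisons (fold changes, p-values) were not used. Expected counts were rounded and scaled by TMM factors over the 3 libraries of the diet model (edgeR 4.0.16, R 4.3.3), or over all 6 libraries beside corn oil. Log2 ratios with a prior count of 2 and exact 95% Clopper-Pearson intervals (scipy 1.17.1, Python 3.11.15) were computed for genes with at least 10 counts in either library, and a count of 0 was set at a floor of 3 for bounds. The rule was tested on simulated data. Named were the 10 largest rises and falls among called genes with at least 100 counts, the 10 largest gains and losses of reads, and within lists up to 4 members a direction by size, plus members whose role a sentence is about. A few genes that the rule names are not reported here, and list counts and medians cover all members. The comparison and the gene lists were chosen with earlier results of these data known, and the families after values were seen. Of 13335 genes, 10604 (79.5%) had a RefSeq promoter. Counts of genes with ERSE are therefore given by call as a description only, and motif shares of genes called higher and lower were not tested. The motifs SRE, DR1 and ARE, of sterol, nuclear receptor and antioxidant responses, were searched in the same way. They stood in 1.33%, 0.0566% and 2.72% of all promoters. The shares were 1.61%, 0% and 3.57% among genes called higher, and 2.03%, 0% and 3.05% among genes called lower.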

Additional observations from a re-analysis of the deposited data

How the results depend on the processing

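No paired analysis was possible because each condition has 1 library. The count of 1252 genes past 2-fold stayed within 1.5 times under TMM over the 2 libraries alone (1251), DESeq2 size factors (1251, version 1.42.0), total reads (1325), at least 1 count (1317), a prior count of 0.5 (1291), no condition on the interval (1345), subtraction of length-bin medians (1247) and an exact binomial test of the reads at an adjusted p under 0.001, which compares the libraries and not the diets (923). It was 695 with at least 100 counts, 617 with the whole interval past 2-fold, 543 on deposited log2(FPKM + 1), where the added 1 shrinks ratios of low genes, and 1976 with the corn oil library as control. Only 596 of the 1252 calls were also made, in the same direction, against corn oil. The share of calls that were higher was 57.9%, and 67.8% under total reads, which moved the median of all genes to 0.13. Between chow and corn oil, 1347 genes became 1418 under total reads. Of 241 genes followed, called or not, 48 stayed inside their own counting interval against the corn oil library and 168 lay outside it, beside those that changed sign. On deposited FPKM 169 lay outside it, and under total reads 97. The interval is narrow for genes with many reads. Of the 232 genes followed that were called, 24 changed sign against the corn oil library and none under the other scalings, filters and prior. For these 24 the log2 ratio of HFD over corn oil was -0.018 for Abcc3, -0.90 for Angptl8, -0.10 for Birc5, -0.064 for Cbr3, -0.35 for Ciart, 0.25 for Col15a1, 0.56 for Cxcl13, -2.81 for Cyp26a1, -0.092 for Cyp2c38, -1.70 for Cyp3a25, -1.07 for Cyp7a1, -0.048 for Ddit4, 0.038 for Fads2, -0.15 for Fitm1, -0.050 for Gsta1, -0.066 for Gstt3, 0.57 for Irs2, -0.64 for Lpin1, -2.85 for Mt1, -3.09 for Mt2, -0.56 for Mup15, -0.55 for Mup2, -0.11 for Rdh5 and -0.43 for Rhbg. The cause was not tested. Of the lists, the neutrophil markers turned from 0.93 to -0.63 with at least 100 counts, where few genes were left. Genes near 10 reads have wide intervals.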

Other observations

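Among genes outside the lists, chosen here after their values were seen, some enzymes of steroid metabolism were higher in the HFD library. Some enzymes of steroid metabolism on the lists above were lower, such as Cyp17a1 (786, 101 and 646 reads in chow, HFD and corn oil) and Hsd17b7 (2461, 710 and 1009). Hsd3b2, a close relative of Hsd3b5 that can share reads with it, had 69, 677 and 212 reads (log2 ratio of HFD over chow 3.17), and Hsd3b3, another relative, had 690, 4202 and 1015 (2.51). Cyp21a1, the steroid 21-hydroxylase, had 38, 627 and 138 reads (3.89), Akr1c14 831, 5101 and 1386 (2.52) and Hsd17b6 584, 3237 and 557 (2.38). Serpina6, the plasma carrier of corticosteroids, had 525, 2492 and 1172 reads (2.15), and Serpina7, a carrier of thyroid hormone, had 498, 2420 and 136 (2.19).

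Car3, a carbonic anhydrase of liver and muscle, had 2830, 39704 and 9536 reads (3.72). C4a, a complement gene whose near copy C4b can share its reads, had 159, 2358 and 380 (3.78). Rgs16, a regulator of G-protein signalling, had 73, 1102 and 122 (3.79), and Lgals1, a galectin, had 108, 840 and 274 (2.85). On the lower side, the laminin chain Lamb3 had 2193, 164 and 503 reads (-3.82), the muscle-type carnitine transferase Cpt1b 666, 136 and 180 (-2.37), the carnitine transporter Slc22a5 4583, 1149 and 1969 (-2.09) and Csad, an enzyme of taurine synthesis, 8381, 1597 and 6300 (-2.48). Each is a difference between single libraries with no replicate check.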
